A study of Mus musculus with 8 samples.

Results

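The regions described here are 1968 stretches of chromatin away from the ends of genes that were open in mouse melanoma lines labelled as STAT3 knockout and nearly closed in the wild-type lines. They were taken from a deposited count table of 148664 regions, of which 126838 were distal, that is, on an autosome and more than 1 kb from either end of any protein-coding gene. A distal region was a member when the lowest of its 4 knockout libraries had at least 4 CPM (the region's count scaled to a library total of 1000000) and at least 3 times the CPM of the highest of its 4 wild-type libraries. The rule took 1.55% of the distal regions, and the same rule with the genotypes exchanged took 1458 (1.15%), called wild-type-only regions below. The members were thus selected on the difference between genotypes, which is given here as a description with no test. Of all distal regions, 15.6% had every knockout library above every wild-type library.

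ATAC-seq, which uses the Tn5 transposase to cut and tag open DNA, was run on 4 melanoma lines with 2 replicate libraries each. Lines 112 and 113 carry the STAT3 knockout label and lines 119 and 73 the wild-type label; the protocol writes the genotypes as Stat3∆ and Stat3fl, a floxed allele. The lines were grown from lymph node cell suspensions of mice whose cutaneous melanoma began at about 25 to 30 weeks of age, and 50000 cells went into each reaction. The labels call a line a clone and the protocol calls it a pool, and the Cre driver, the tumour-driving alleles and the meaning of a p number in the titles (18 in 112, 44 in 113, 14 in 119 and 68 in 73) are not given in the sources used here. The genotype therefore rests on 2 lines against 2. Nothing says whether the 2 libraries of a line were separate cultures, so p-values between lines measure only the spread between these libraries, which may be technical.

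The end region of Stat3, the targeted gene, did not separate the labels, with 31.1 to 34.8 CPM in the knockout libraries and 18.8 to 34.8 CPM in the wild-type libraries. The deleted part of the gene is not given in the sources used here, so this value does not check the knockout. The 4 regions at the ends of the Y-linked genes Ddx3y, Eif2s3y and Uty had 0 counts in each knockout library and 168 to 266 counts in each wild-type library, so genotype and this signal cannot be told apart. Line 112 stands apart on chromosome 6, and the counts most touched by that chromosome are given with and without it.

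Distal open regions are mostly enhancers, stretches bound by transcription factors that act on genes at a distance, and they mark the identity of a cell more closely than the starts of genes do. In the melanocyte lineage MITF, with SOX and PAX3 factors, switches on the genes that make melanin and the melanosome, the organelle that holds it. STAT3 carries signals from cytokine receptors to the genome, and the series asks whether it holds down this pigment programme through C/EBP factors.

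Some members hold the annotated start of a transcript inside a gene, and these starts show the pattern most plainly because other starts of the same genes are measured beside them. RefSeq (GRCm38.p6) places 29 start windows of 300 bases (250 before and 50 after the start, overlapped by at least 150 bp) in 26 members. Of these, 10 windows belong to the coding genes Mitf, Trpm1, Rab27a, Elavl2, Chn2, Arsg, Ncmap and Fam71f2, and 19 to long non-coding RNAs. The 250 bases before the start are shown for the 3 pigment-lineage genes, 5′ to 3′ on the plus strand, as the windows in which the data and the sequence meet. Capitals mark matches to the motifs named after them. They are chr6:97991533-97991782 for the Mitf start, chr7:64185209-64185458 for the Trpm1 start and chr9:73063898-73064147 for the Rab27a start.
Mitf: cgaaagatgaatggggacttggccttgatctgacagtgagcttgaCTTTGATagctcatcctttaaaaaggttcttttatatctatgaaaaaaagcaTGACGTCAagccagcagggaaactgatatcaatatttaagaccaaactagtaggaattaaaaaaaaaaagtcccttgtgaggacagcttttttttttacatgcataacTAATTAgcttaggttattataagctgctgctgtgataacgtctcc
Trpm1: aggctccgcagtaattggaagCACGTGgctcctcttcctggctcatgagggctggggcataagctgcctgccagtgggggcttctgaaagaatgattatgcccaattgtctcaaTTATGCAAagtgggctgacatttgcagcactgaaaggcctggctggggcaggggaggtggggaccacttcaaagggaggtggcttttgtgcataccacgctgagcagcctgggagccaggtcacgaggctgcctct
Rab27a: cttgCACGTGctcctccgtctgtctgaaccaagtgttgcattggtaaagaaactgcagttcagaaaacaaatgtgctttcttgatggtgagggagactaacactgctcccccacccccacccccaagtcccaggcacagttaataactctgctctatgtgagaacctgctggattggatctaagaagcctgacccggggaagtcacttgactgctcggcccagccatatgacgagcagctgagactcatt
In the Mitf window the capitals are CTTTGAT, the core bound by TCF and LEF factors, 205 to 199 bases before the start, TGACGTCA, the cyclic AMP response element bound by CREB and ATF factors, at 153 to 146, and TAATTA, a homeodomain core, at 45 to 40. In the Trpm1 window they are CACGTG, an E-box that MITF and related factors can bind, at 229 to 224, and TTATGCAA, which matches the C/EBP core TTGCNNAA on the other strand, at 136 to 129. In the Rab27a window the capital letters are CACGTG at 246 to 241.

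Mitf is transcribed from several starts, and RefSeq lists 3. The member at the third start lies inside the gene at chr6:97991085-97992009, 29.4 kb from the gene's end. It had 18.8 and 13.3 CPM in line 112, 16.9 and 15.3 CPM in line 113, 0.804 and 0.697 CPM in line 119 and 0.687 and 0.507 CPM in line 73. The knockout lines averaged 16.1 ± 0.0186 CPM and the wild-type lines 0.674 ± 0.109 CPM (mean ± SD over the lines, n = 2 per genotype), a factor of 23.9, and every knockout library lay at least 16.6 times above every wild-type library. The region at the first start of Mitf, at the gene's end, did not follow this order. It had 30.8 and 25.2 CPM in line 112, 32.4 and 32.8 CPM in line 113, 17.8 and 21.1 CPM in line 119 and 34.1 and 36.5 CPM in line 73, so the wild-type lines lay on both sides of the knockout lines. The second start was weakly open in all lines, at 1.21 to 5.93 CPM, with the genotypes overlapping.

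Elavl2, a neuronal RNA-binding protein, and Rab27a, a small GTPase that tethers melanosomes to the cytoskeleton, had a like arrangement. The member over the inner starts of Elavl2 (chr4:91371526-91372343) had 15.8 and 18.5 CPM in line 112, 34.4 and 32.4 CPM in line 113, 1.47 and 1.39 CPM in line 119 and 1.37 and 1.27 CPM in line 73. Some 4 kb upstream, the region over 2 other starts of Elavl2 had 15.9 to 34.4 CPM in the knockout libraries and 12.0 to 22.7 CPM in the wild-type libraries, which overlap. The member at the inner start of Rab27a (chr9:73063580-73064235) had 12.0 and 11.9 CPM in line 112, 17.7 and 16.9 CPM in line 113, 0.804 and 1.57 CPM in line 119 and 1.14 and 1.27 CPM in line 73. At the outer start of Rab27a the knockout libraries had 1.5 to 6.67 CPM and the wild-type libraries 2.96 to 3.8 CPM. Of the 8 coding genes, 5 had a separate region at another annotated start, 6 such regions in all, and the genotypes overlapped in each but the first start of Chn2, a Rac GTPase-activating protein. That region had 29.0 to 42.2 CPM in the knockout libraries and 6.97 to 8.04 CPM in the wild-type libraries. The 5 genes were looked up after the members at their starts had been seen.

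**Figure D1:**
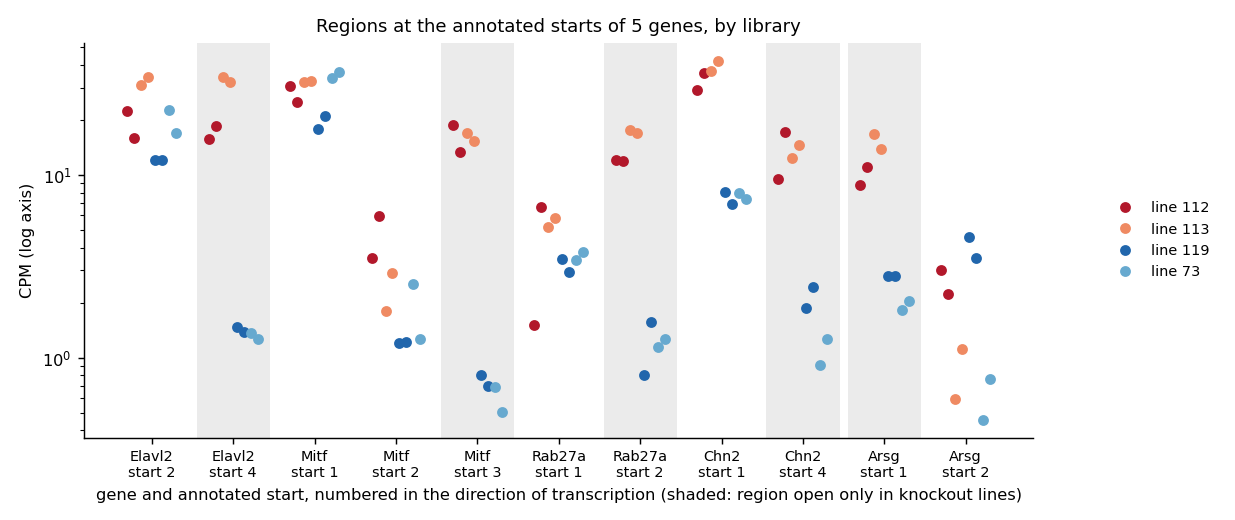
CPM (log axis) in each of the 8 libraries at the regions over annotated starts of the 5 coding genes that have both a member and another measured region at a start; each point is a library, coloured by line, and shaded columns are members. At Mitf the knockout libraries sit at 13.3 to 18.8 CPM at the third start, far above the wild-type libraries, while all 4 lines mix at the first start.

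Short motifs were searched in these windows on both strands and set beside all 32817 start windows of the RefSeq table. CATGTG, an E-box core of MITF and related factors, was in 8 of the 29 windows (27.6%, against 14.2% of all windows, 19.0% of the windows of long non-coding RNAs and 0 of 20 windows in wild-type-only regions), and with a T before it, TCATGTG, in 0 (3.78% of all windows). The 3 windows of Elavl2 overlap and share a single site among those 8. CACGTG was in 3 windows (10.3% against 7.15%), and with a T before it, TCACGTG, in 0 (3.76%). The SOX core AACAAAG was in 4 windows (13.8%, against 5.85% of all windows and 7.4% of those of long non-coding RNAs). All 4 were windows of long non-coding RNAs. The AP-1 core TGANTCA, bound by FOS and JUN, was in 2 member windows (6.9% against 7.81%) and in 7 of the 20 windows of wild-type-only regions (35.0%). The STAT core TTCNNNGAA was in 2 (6.9% against 8.29%) and the C/EBP core TTGCNNAA in 2 (6.9% against 10.8%). A match is a description of letters and not a site, and these windows are in 1.32% of the members; sequence of the other members was not analysed here.

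Over all 1968 members the levels were low in absolute terms in the wild-type lines rather than absent. The median member had 10.8 and 9.08 CPM in the libraries of line 112, 12.7 and 11.2 CPM in line 113, 1.21 and 1.22 CPM in line 119 and 1.14 and 1.01 CPM in line 73. Over all distal regions the medians lay between 2.06 and 3.71 CPM in the 8 libraries, with the genotypes mixed. Members held 2.11% to 2.91% of all counts in the knockout libraries and 0.225% to 0.316% in the wild-type libraries. The highest wild-type library was below 1 CPM in 245 members and at least 4 CPM in 142, and no member had 0 counts in all 4 wild-type libraries. The median ratio of the lowest knockout to the highest wild-type library was 4.28; it was at least 5 in 688 members and at least 10 in 87, and reached 30.4. At the limits of the rule, the nearest members had ratios of 3.0 and lowest knockout values of 4.01 CPM, and the nearest regions left out had ratios of 2.99 to 3.0 and values of 3.98 CPM.

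**Figure D2:**
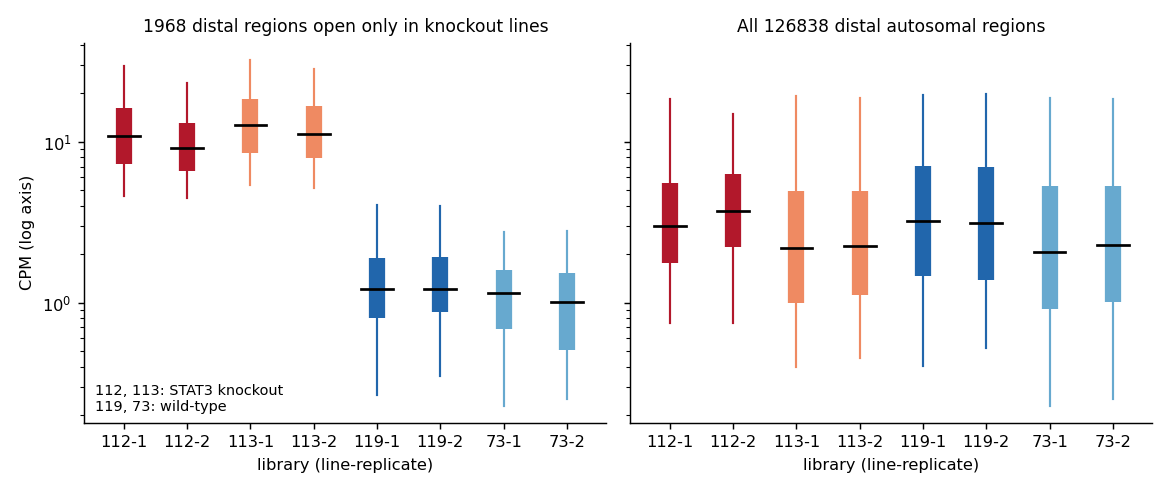
CPM (log axis) in each library at the 1968 members (left) and at all 126838 distal regions (right); bars span the middle 50% of regions, thin lines the 5th to 95th percentile and black marks the median. Medians at the members are 9.08 to 12.7 CPM in knockout and 1.01 to 1.22 CPM in wild-type libraries, as the rule requires, while the medians of all distal regions mix.

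The authors' peak calls, made for each library separately, gave another description of the same reads. A peak overlapped 1557 and 707 members (line 112), 1893 and 1865 (line 113), 200 and 151 (line 119) and 6 and 9 (line 73) in replicates 1 and 2. The low count in line 112 replicate 2 goes with the smallest library (2697546 counts, against 3993473 to 7464336 in the others) and the shortest peak list (20387 peaks). All 4 knockout libraries had a peak at 692 members (35.2%, against 6.56% of all distal regions), and 500 members (25.4%) had a peak in all 4 knockout and no wild-type library, against 0.495% of all distal regions. A wild-type peak overlapped 235 members (11.9%, against 75.7% of all distal regions), 232 of them in line 119 and 12 in line 73. Line 119 also had the longer peak lists (94906 and 85498 peaks, against 56497 and 56096 in line 73). Over all distal regions, 80067 had a peak in line 119 and 47581 in line 73. No wild-type library had a peak at 1733 members (88.1%, against 24.3% of all distal regions), which include 26 members with no peak in any library. By peak calls, the words "open only in knockout lines" thus hold across all 4 knockout libraries only for the 500 members above. Since the counts that chose the members come from the same reads, these shares were not tested.

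Some members lay in groups along the genome. With members no more than 50 kb apart joined, 1381 stood alone and the others formed 248 groups, 57 of them with 3 or more members. In all, 29.8% of the members had another member within 50 kb, against 21.9% of the wild-type-only regions. The larger set (1968 against 1458) has closer neighbours by number alone, so these shares do not show that members are more grouped. The 4 largest groups had 8 members each. They lay at Bmp7, which encodes a secreted growth factor of the TGF-beta family, at Mitf, at Pax3, a transcription factor of the neural crest that acts upstream of Mitf, and at Tanc1, a scaffold protein of synapses. A further 3 groups had 5 members each, at Pde1c, a cyclic nucleotide phosphodiesterase, at Eefsec, an elongation factor for selenocysteine, and near Nek10, a kinase.

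At Bmp7 (chr2:172909276-172974491) 8 of the 10 distal regions in the span were members. Their CPM summed to 139 and 106 (line 112), 205 and 174 (line 113), 15.0 and 15.2 (line 119) and 10.5 and 8.11 (line 73). The span at Mitf (chr6:97918005-98047208) held 8 members of 25 distal regions, with sums of 140 and 104 (line 112), 125 and 109 (line 113), 13.1 and 13.6 (line 119) and 7.33 and 8.62 (line 73). At Pax3 (chr1:78143670-78175811) 8 of 14 distal regions were members, with sums of 77.9 and 72.3 (line 112), 87.9 and 90.1 (line 113), 12.5 and 12.0 (line 119) and 9.39 and 10.1 (line 73). Line 113 was the higher knockout line at Bmp7 and Pax3, and at Mitf the lines 112 and 113 overlapped. The member 25.2 kb beyond the downstream end of Mitf (chr6:98046543-98047208) was the strongest of that group, at 26.6 ± 4.67 CPM in the knockout lines; line 119 had 4.82 and 5.58 CPM there and line 73 0.687 and 1.01 CPM.

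Counted by the gene that contains a member or, outside genes, has the nearest end, the members fell to 1389 genes, of which 119 had 3 or more. Sox5, a SOX factor that modulates SOX10 in melanocytes, had the most, 13 of its 114 distal regions. Pax3 followed with 11 of 53, Bmp7 with 9 of 24, Mitf with 9 of 63, and Elavl2 and Oca2 with 8 of 21 each. Oca2, whose product is an ion channel of the melanosome, had summed values of 127 and 101 CPM in line 112, 141 and 141 CPM in line 113, 9.51 and 7.5 CPM in line 119 and 7.1 and 11.9 CPM in line 73. Its member with the largest separation of the 3 strongest (chr7:56518493-56520266, inside the gene) averaged 23.6 ± 2.62 CPM over the knockout lines and 1.67 ± 0.674 CPM over the wild-type lines.

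**Figure D3:**
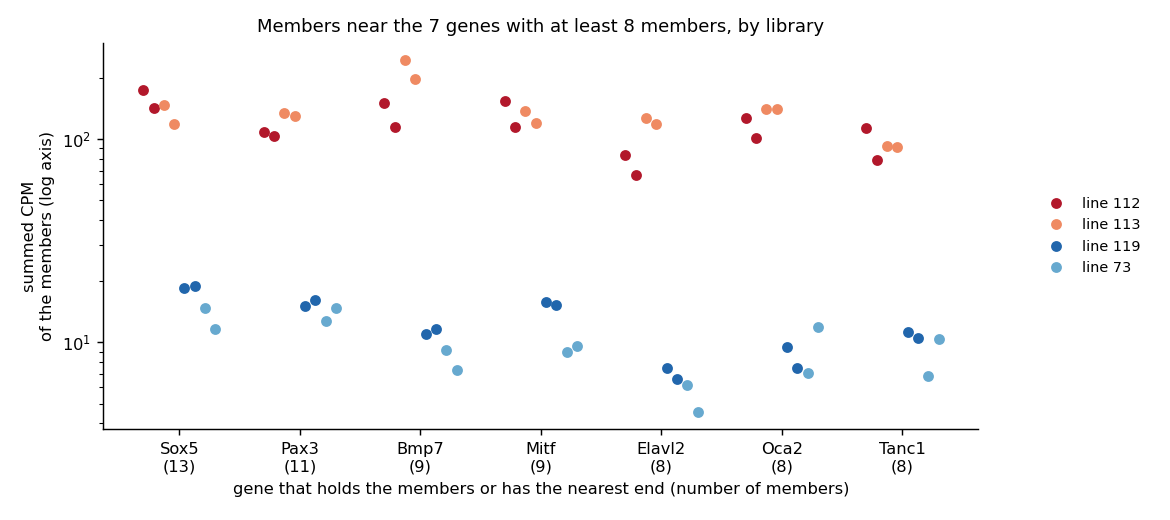
Summed CPM (log axis) of the members at each of the 7 genes with at least 8 members, in each library; points are libraries, coloured by line, and the number of members is in brackets. The knockout libraries lie above the wild-type libraries at every gene, as the rule requires; at Oca2 they have 101 to 141 CPM, and the wild-type libraries 7.1 to 11.9 CPM.

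The members near lists of genes were counted with a window of 50 kb around each gene and set beside 1.55% of all distal regions. Near 24 autosomal genes of melanin synthesis and the melanosome, 19 of 349 distal regions (5.44%) were members, at 10 genes. Near 17 transcription factors of the melanocyte lineage and neural crest, 30 of 393 were members (7.63%), 12 at Sox5, 9 at Pax3, 8 at Mitf and 1 at Sox6. Wild-type-only regions made up 1.43% and 0.254% of the same regions, against 1.15% of all distal regions. Since a member had to be open in the knockout lines, the shares were also taken over distal regions with at least 4 CPM in all 4 knockout libraries. Of these 26296 regions 7.48% were members, of the 116 near pigment genes 16.4%, and of the 132 near lineage factors 22.7%.

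Among the pigment genes, 8 of the 19 members lay at Oca2, 2 each near Rab27a and near Mlph, the linker of RAB27A to myosin, and 1 each near Tyrp1, Mlana, Slc45a2, Gpnmb, Trpm1, Mc1r and Ednrb. The member inside Mlana, a melanosome protein used as a melanocyte marker (chr19:29702793-29703401), had 21.8 and 18.5 CPM in line 112, 25.5 and 21.3 CPM in line 113, 1.47 and 2.09 CPM in line 119 and 0.916 and 2.03 CPM in line 73. The member inside Slc45a2, a transporter of the melanosome (chr15:11002934-11003780), had 20.3 and 16.7 CPM in line 112, 21.3 and 22.0 CPM in line 113, 2.14 and 0.523 CPM in line 119 and 2.06 and 3.3 CPM in line 73. In both, every knockout library was at 16.7 CPM or more and every wild-type library at 3.3 CPM or less. The pigment enzymes Tyr and Dct, the melanosome protein Pmel and the receptor Kit had no member within 50 kb, and neither had the lineage factors Sox10 and Tfap2a.

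Other lists gave fewer members or a share nearer to 1.55%. Near 20 genes of the dedifferentiated or invasive melanoma state 1 of 357 distal regions was a member (0.28%), at Cdh2, which encodes N-cadherin. Near 25 genes of the STAT3 pathway 4 of 353 were members (1.13%), 3 inside Bcl2, an inhibitor of cell death, and 1 near Birc5. Near 7 genes of the C/EBP family 3 of 58 were members (5.17%). All 3 lay near Cebpe and inside its neighbour Slc7a8, an amino acid transporter, and none lay near Cebpa, Cebpb or Cebpd. Near 13 AP-1 genes 1 of 152 was a member (0.658%), near Maff. Taken over the distal regions open in the knockout lines, the share was 1.39% of 72 for the invasive list and 3.7% of 108 for the STAT3 list. It was 11.1% of 27 for the C/EBP list and 1.82% of 55 for the AP-1 list, against 7.48% of all such regions.

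Near 22 genes of WNT signalling 8 of 296 distal regions were members (2.7%), 3 each at Axin2, an inhibitor of the pathway, and Lrp6, a coreceptor, and 1 each near Wnt4 and Fzd7. Near 45 genes of neuronal adhesion and axon guidance 28 of 1290 were members (2.17%), at 16 genes, with 7 at Ptprd, a receptor phosphatase, and 3 each at Dcc, the netrin receptor, and Cntn6, a contactin. Over the distal regions open in the knockout lines, the adhesion and guidance share was 20.9% of 134, against 7.48% of all such regions. For the WNT list it was 10.7% of 75. Each of the lists was chosen with earlier results of these data known, and these shares carry no test.

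**Figure D4:**
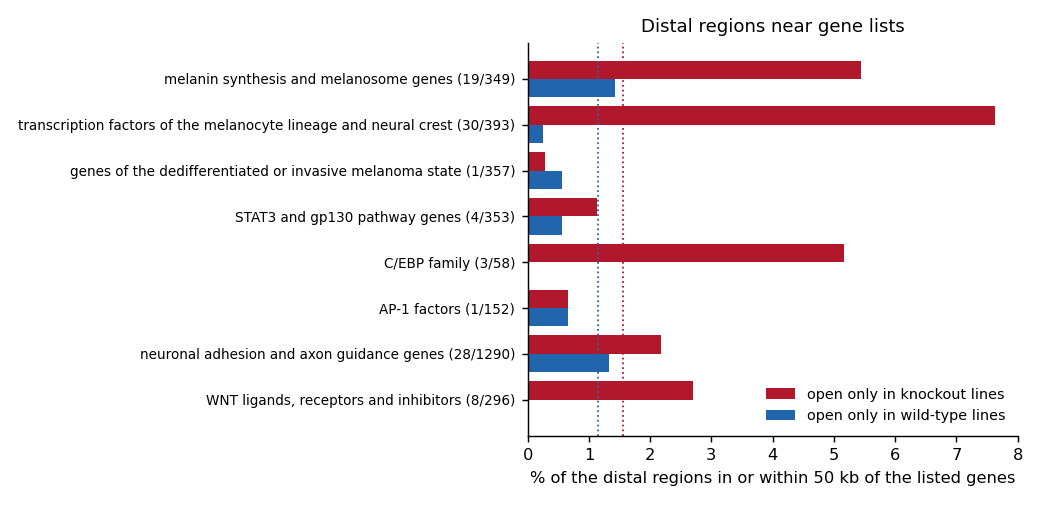
Percentage of the distal regions in or within 50 kb of the genes of each list that are open only in knockout lines (red) or only in wild-type lines (blue), with members and distal regions in brackets; dotted lines are the shares of all distal regions, 1.55% and 1.15%. Lineage factors (7.63%) and pigment genes (5.44%) have the highest red bars, and the C/EBP bar rests on 3 members at 1 gene.

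Chromosome 6, which carries Mitf, Sox5, Gpnmb, Lrp6 and Pde1c, held 254 members (12.9%). They were 3.0% of its distal regions, against 1.45% on the other autosomes, and the wild-type-only regions there were 21 (0.248%). Line 112 stood apart on this chromosome: the share of its counts in weakly open distal regions of chromosome 6 was 1.74 times the mean of the 4 lines, against 0.694 in line 113, 0.799 in line 119 and 0.77 in line 73. With each chromosome scaled in each library by its weak regions, chosen after these values were seen, 1955 regions met the rule. Of them 129 lay on chromosome 6, 1.53% of its distal regions against 1.54% elsewhere. Under that scaling Mitf kept 5 of its 9 members and Sox5 5 of 13, and the member near Gpnmb was lost. Pax3 kept 10 of 11, Oca2 7 of 8, Bmp7 9 of 9 and Elavl2 8 of 8. Without chromosome 6 the lineage factors had 10 members of 237 distal regions (4.22%), the pigment genes 18 of 337 (5.34%), the WNT list 5 of 258 (1.94%) and the adhesion and guidance list 21 of 1126 (1.87%), against 1.45%. Over the distal regions open in the knockout lines, the shares without chromosome 6 were 13.5% for the lineage factors, 16.5% for the pigment genes, 7.94% for the WNT list and 18.4% for the adhesion and guidance list, against 7.03%.

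**Figure D5:**
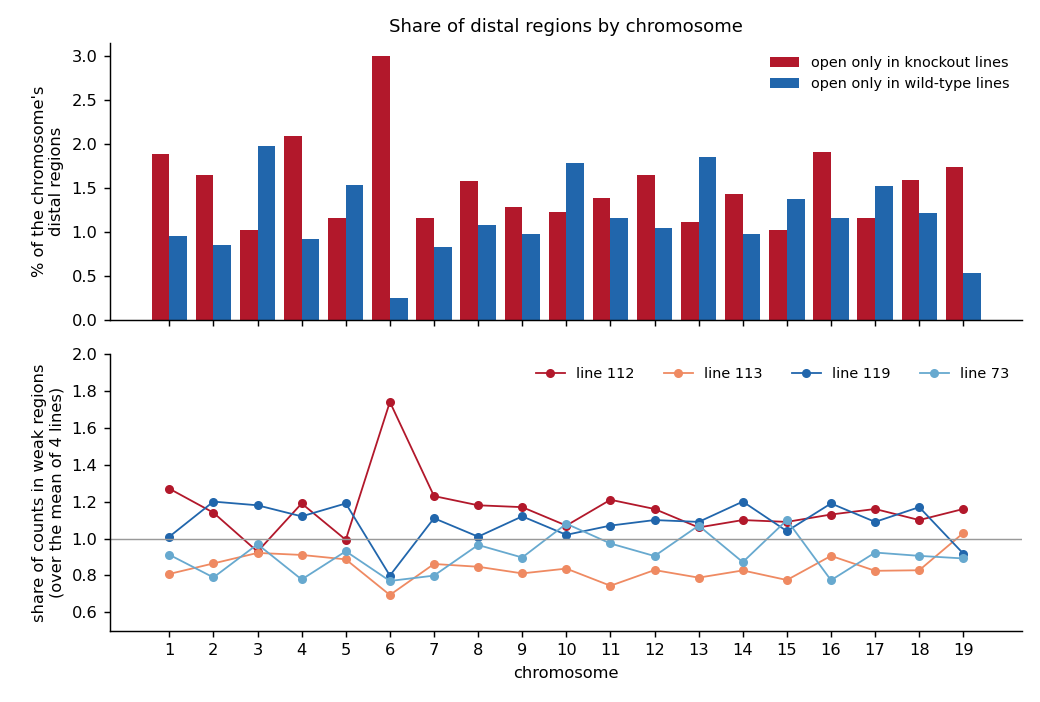
Top, percentage of each autosome's distal regions open only in knockout or only in wild-type lines; bottom, each line's share of counts in weak distal regions of the chromosome, divided by the mean of the 4 lines. Chromosome 6 has the highest share of members (3.0%) and the highest value of line 112 (1.74).

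The 20 members with the highest mean of the knockout lines averaged 37.8 to 54.5 CPM in the knockout lines and 1.35 to 8.07 CPM in the wild-type lines; 7 of them lay on chromosome 6 and 12 inside a gene. A wild-type peak overlapped 16 of these 20, against 235 of all 1968 members. The most separated of the 20 lay inside Ppp2r5c, a regulatory subunit of protein phosphatase 2A (chr12:110556879-110557623). It had 37.3 and 28.5 CPM in line 112, 41.4 and 43.8 CPM in line 113, 0.938 and 1.39 CPM in line 119 and 2.06 and 1.01 CPM in line 73, a ratio of 13.9 between the closest libraries. The member inside Slc7a8 near Cebpe (chr14:54748081-54749704) was also among them, at 40.2 ± 12.0 CPM over the knockout lines and 3.3 ± 1.02 CPM over the wild-type lines.

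The median distance from a member to the nearest gene end was 36.3 kb, against 30.9 kb over all distal regions and 47.1 kb for wild-type-only regions. A coding gene contained 56.2% of the members, 52.0% of all distal regions and 47.6% of wild-type-only regions. More than 100 kb separated 489 members from a gene end, and more than 500 kb separated 50. The farthest, near Celf4 on chromosome 18, lay 1760 kb away. The median member was 640 bp long, against 568 bp over all distal regions.

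The knockout lines were then compared with each other, a contrast the rule did not use. All 1968 members passed the filter on low counts. Line 113 was higher than line 112 at 717 members (36.4%) and lower at 45 (2.29%), by edgeR's quasi-likelihood test with an adjusted p under 0.05. Over all 134068 regions tested the shares were 16.5% and 8.95%. Regions as open as the members follow the same split: among the 26296 distal regions with at least 4 CPM in all 4 knockout libraries, 31.4% were higher in line 113 and 3.89% in line 112. The median log2 difference, line 112 minus line 113, was -0.55 at the members, -0.42 at those open regions and 0.08 over all tested regions. On chromosome 6 the split was 35 members higher in line 113 (13.8%) and 26 in line 112 (10.2%), and on the other autosomes 682 (39.8%) and 19 (1.11%). Of all distal regions tested, 3.74% were higher in line 113 and 43.4% in line 112 on chromosome 6, and 13.7% and 7.05% elsewhere. Of those with at least 4 CPM in all 4 knockout libraries, the shares were 10.2% and 21.9% on chromosome 6, and 33.1% and 2.47% elsewhere. With total counts in place of TMM (edgeR's trimmed-mean scaling), 386 members were higher in line 113 and 124 in line 112. Of all regions tested, 9.18% and 16.7% were. The counts and these shares thus depend on the scaling. They also depend on single libraries. Without replicate 1 or 2 of line 112, 10 and 102 members were higher in line 112, against 7.29% and 6.91% of all regions. Without replicate 1 or 2 of line 113, 26 and 23 were, against 3.86% and 5.43%. The count for line 113 was 465 without replicate 2 of line 112 (11.9% of all regions) and 368 without replicate 1 of line 113 (8.96%).

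The members that differed most between the knockout lines were much stronger in one. The rule itself required at least 4 CPM in both. A member 1680 kb from the nearest gene end, that of Cntnap5b (chr1:102170519-102171650), had 6.01 and 4.82 CPM in line 112 and 43.5 and 38.4 CPM in line 113, a log2 difference of -3.21 (SE 0.30, edgeR adjusted p 1.16e-11). A member inside Sorcs1, a sorting receptor (chr19:50616669-50617280), had 4.76 and 4.82 CPM in line 112 and 29.8 and 24.7 CPM in line 113. The largest difference in the other direction was inside Cmas, an enzyme of sialic acid activation (chr6:142759630-142760250), with 33.1 and 30.4 CPM in line 112 and 9.94 and 5.84 CPM in line 113 (log2 1.67, SE 0.27, edgeR adjusted p 5.3e-06). Pigment members also differed between the lines. The member at the Trpm1 start had 17.8 and 18.9 CPM in line 112 and 38.2 and 27.4 CPM in line 113 (log2 -1.17, SE 0.25, edgeR adjusted p 0.000284). The member 45.1 kb from Tyrp1 had 8.51 and 11.9 CPM in line 112 and 20.7 and 16.9 CPM in line 113 (log2 -1.24, SE 0.27, edgeR adjusted p 0.000453). At the Mitf start the difference did not pass the threshold (log2 -0.29, SE 0.25, edgeR adjusted p 0.415).

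Between the wild-type lines, line 119 was higher than line 73 at 200 members (10.2%, against 29.6% of all regions) and lower at 56 (2.85%, against 30.7%). The rule kept all 4 wild-type libraries low at the members, so fewer reads back this comparison than in the regions overall. Leaving out a wild-type library lowered the shares called over all regions too. Without replicate 1 or 2 of line 73, 119 and 112 members were higher in line 119, against 22.4% and 23.2% of all regions. The count for line 73 was 28 without its own replicate 1 (23.2% of all regions). It was 23 and 36 without replicate 1 or 2 of line 119 (18.1% and 18.8%). Line 119 was the higher one at 1 of the 3 strongest members at Mitf and at 1 of the 3 strongest at Sox5; the other two at each gene had log2 differences of -0.23 to 0.15, which did not pass the threshold. At the member inside Sox5 (chr6:144721398-144721993) it had 6.7 and 6.45 CPM, line 73 had 0.687 and 1.27 CPM, and the knockout libraries had 22.5 to 41.6 CPM (log2 line 119 minus line 73 2.57, SE 0.47, edgeR adjusted p 7.68e-06). At the member near Gpnmb (chr6:49028007-49028911), a melanosome glycoprotein, line 119 had 9.11 and 8.89 CPM and line 73 0.916 and 2.53 CPM (log2 2.22, SE 0.38, edgeR adjusted p 1.6e-06). The largest differences the other way had 0 counts in both libraries of line 119. An example lay 15.8 kb from Fgl1, where line 73 had 3.21 and 2.79 CPM.

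The ends of the genes nearest to the members were compared between genotypes, a measure outside the distal regions of the rule. Of 1394 nearest genes, 1153 had a region within 1 kb of an end. All 4 knockout libraries lay above all 4 wild-type libraries at 184 of these (16.0%, against 8.42% of 14103 genes) and below them at 48 (4.16%, against 4.6%). Without chromosome 6 the share above was 148 of 1025 (14.4%, against 7.75% of all genes off that chromosome). With it, the share was 21.5% for genes with 2 or more members and 23.0% for genes with 3 or more, and 7.75% for genes nearest to no member. Of the genes nearest to a wild-type-only region, 5.26% lay above and 11.5% below. With lines as units (2 against 2), edgeR's quasi-likelihood test called 0 of these gene ends and 0 of all 140329 regions (0.0%) at an adjusted p under 0.05. At an unadjusted p under 0.05 there were 92 of the 1150 gene ends tested, against 643 of the 14038 tested ends of all genes, and 23733 regions, and the smallest adjusted p was 0.143. The count of 0 rests on replicate 1 of line 112: without that library the test called 633 regions (0.453%), which include 3 of these gene ends, those of Mlana, Npy and Bmp7. Leaving out any other single library gave 0 calls at these gene ends.

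Among the nearest genes of members, the 10 ends with the widest separation included those of Mlana, Slc45a2 and Bmp7, the neuropeptide gene Npy, the synaptic vesicle genes Syt4 and Syn2, and the growth factor receptor gene Pdgfra. The end of Mlana had 10.5 and 13.3 CPM in line 112, 10.1 and 8.31 CPM in line 113, 0.67 and 0.872 CPM in line 119 and 0.458 and 0.0 CPM in line 73 (log2 knockout minus wild type 4.25, SE 1.0, edgeR adjusted p 0.143). The end of Bmp7 had 40.3 and 34.8 CPM in line 112, 64.4 and 57.5 CPM in line 113, 7.37 and 5.93 CPM in line 119 and 4.12 and 3.04 CPM in line 73 (log2 3.25, SE 0.71, edgeR adjusted p 0.143). At both ends the genotypes were far apart and the test with 2 lines a group did not pass. Among further pigment and lineage genes, the ends of Dct, Tyr, Tyrp1, Sox10, Gpnmb and Kit also had all knockout above all wild-type libraries, and Dct, Tyr and Sox10 were the nearest gene of no member. The end of Dct, an enzyme of melanin synthesis, had 26.8 and 24.8 CPM in line 112, 60.8 and 51.7 CPM in line 113, 3.48 and 4.36 CPM in line 119 and 0.458 and 0.507 CPM in line 73. The ends of Mitf, Pmel, Rab27a and Ednrb overlapped between genotypes.

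As a check of the cell type, the summed end regions of 7 melanocyte markers had 149 to 220 CPM in the knockout libraries and 77.3 to 112 CPM in the wild-type libraries. Of the 7 genes, 5 were higher in all knockout libraries (8.42% of all gene ends were). Most of the wild-type sum lay at Pmel and Mitf, which overlapped between genotypes, and the Pmel region also lies at an end of Rab5b. In line 73 Pmel had 67.8 and 66.9 CPM and Mitf 34.1 and 36.5 CPM, with at most 3.3 CPM at each other marker. In line 119 Pmel had 32.6 and 35.0 CPM, Mitf 17.8 and 21.1 CPM, and Sox10 16.6 and 19.7 CPM. Fibroblast markers had 59.3 to 67.5 CPM against 54.3 to 173 CPM, with 2 of 7 genes higher and 2 lower in all knockout libraries. Lymphocyte markers, relevant because the lines came from lymph nodes, had 31.4 to 60.1 CPM against 34.5 to 46.2 CPM, with no region at Cd3g, Cd8a or Ptprc and no gene separated. Schwann cell markers, of a related neural crest lineage, had 50.4 to 58.2 CPM in the knockout libraries against 28.4 to 45.1 CPM, with 1 of 3 measured genes higher in all knockout libraries. Myeloid markers had 24.0 to 30.4 CPM against 25.6 to 65.1 CPM, with 1 of 4 measured genes higher and 1 lower. The part of other cell types in the results was not tested.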

How the data were processed

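Per the submitters' processing notes, reads were handled with Bowtie2 2.2.4, Picard 1.118 and MACS2 2.1.1.20160309 on mm10 (GRCm38). The authors deposited raw counts for shared regions and, per library, peak lists with a score, a fold (ratio) and −log10 p and q values. Only peak positions were used. Whether reads or cuts were counted is not given in the sources used here. Depth was 2697546 to 7464336 counts per library; 0 columns belonged to other series.

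CPM used column totals. Protein-coding genes (21900) and start windows came from RefSeq GRCm38.p6. Its gene table has no strand, so a gene end can be a start or a finish. Line pairs were tested on libraries and genotypes on counts summed per line with edgeR 4.0.16 (R 4.3.3; filterByExpr with minimum count 10 and total 15, TMM, quasi-likelihood, two-sided, Benjamini-Hochberg, threshold 0.05). Alternatives used limma 3.58.1 and DESeq2 1.42.0. The line test was tested on simulated data. Replicates differed beyond counting noise (chi-square per degree of freedom 1.065 to 1.891).

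Members and gene lists were chosen with earlier results of these data known. Named were the 20 strongest members, the 3 strongest near each listed gene, the 5 largest groups, the 3 largest line differences each way, the 3 farthest members, those at the thresholds and the 10 most separated gene ends; genes with most members, alternative starts, 4 motifs (E-boxes, the cyclic AMP element and the TCF/LEF core), chromosome 6 and runs of near-zero counts were added after values were seen.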

Additional observations from a re-analysis of the deposited data

Results flagged for a closer look

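Sets of 4 libraries of a genotype covered peak counts, levels and shares at the members, the 20 strongest members and the 5 largest groups. Of these 56 sets, 5 had a library far from the other 3. The limit used would flag about 1 set in 20 if the 4 libraries were independent draws from the same distribution. Each set holds 2 libraries of each of 2 lines, so this rate need not apply. Line 112 replicate 1 reached 65.9 CPM at the member inside Ptpn6 on chromosome 6, where the other knockout libraries had 36.4 to 38.9 CPM. The same library had 59.3 CPM at the member near Hilpda on chromosome 6, against 36.8 to 37.8 CPM. Line 112 replicate 2 had 27.4 CPM at the member near Fbxo15 on chromosome 18, against 48.1 to 51.1 CPM. Line 73 replicate 2 had 7.1 CPM at the member near Krr1 on chromosome 10, with 4.71 to 5.09 CPM for its wild-type peers. It also had 5.07 CPM at the member inside Slc7a8 on chromosome 14, against 2.55 to 2.98 CPM.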

How the results depend on the processing

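The number of members was 3658 with a fold of 2, 688 with a fold of 5, 920 with a lowest knockout value of 8 CPM and 3861 with line means in place of libraries; it was 1631 with TMM library sizes, of which 1538 are members. Leaving out each library gave 2134 to 2651, a rise set in advance, since fewer libraries can only keep or add members under this rule. DESeq2 called 10 members higher in line 112, 306 higher in line 113 and 24 higher in line 73. Of all regions it called 2.52%, 9.39% and 19.3%. Total counts gave 124 and 386 members for lines 112 and 113, and 16.7% and 9.18% of all regions. Fits that left out a library called smaller shares of all regions for each line. Leaving out each library gave 10 to 102 members higher in line 112, 368 to 836 higher in line 113, 112 to 192 higher in line 119 and 23 to 42 higher in line 73. The same fits called 3.86% to 7.29%, 8.96% to 16.3%, 22.4% to 27.0% and 18.1% to 25.0% of all regions. The lowest and highest counts for line 112 came without its replicates 1 and 2, those for line 113 without replicate 1 of line 113 and replicate 1 of line 112, and those for line 119 without replicates 2 of line 73 and of line 119. Shared replicate numbers did not pair the libraries (correlations of replicate deviations -0.044 to 0.004). With the replicate block 39 members were higher in line 112, 716 in 113, 205 in 119 and 59 in 73. Of all regions, 8.61%, 16.2%, 29.3% and 30.3% were. With lines as units, edgeR called 0 to 255 members and 0 to 3 gene ends over the libraries left out. The highest counts came without replicate 1 of line 112, where 0.453% of all regions were called. At the members the count only describes the contrast the rule used. Gene ends with all knockout above all wild-type libraries numbered 143 to 252 over all alternatives. With TMM library sizes there were 143 (12.4%, against 5.79% of all genes). Without replicate 2 of line 112 there were 252 (21.9%, against 12.9%). Leaving out a library can only keep or add such ends. The invasive list had 3 members within 100 kb, the C/EBP and AP-1 lists 0 within 20 kb, and without chromosome 6 the lineage list had 10 and the WNT list 5. CACGTG was in 1 start window at 200 bp; windows of 500 bp were not run. Causes were not tested. Depth limits the wild-type values most, since the counts there are lowest.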

Other observations

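The hairpin of Mir802, a microRNA gene, lies in a member on chromosome 16 (chr16:93369280-93369899), 214 kb from the nearest coding gene end, that of Setd4. The member had 10.8 and 11.5 CPM in line 112, 16.7 and 10.1 CPM in line 113, 0.67 and 0.174 CPM in line 119 and 1.14 and 0.253 CPM in line 73. A member that holds the start of the long non-coding RNA Gm40010 belongs to the Bmp7 group, with 15.8 and 11.9 CPM in line 112, 28.6 and 18.4 CPM in line 113, 1.21 and 0.872 CPM in line 119 and 1.37 and 1.27 CPM in line 73.

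A search for runs of at least 8 regions under 0.25 CPM in a line, made after values had been seen, found a stretch beside the targeted gene, at Stat5b and Stat5a (chr11:100789591-100860690), in a wild-type line. Its 9 regions together had 2 and 0 counts in line 119, where line 112 had 333 and 249, line 113 had 334 and 292 and line 73 had 331 and 277, and none of them was a member.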
